A study of Homo sapiens with 18 samples.

Results

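Whole-cell mRNA of UFSP2-KO cells was compared with that of WT cells, using the libraries that the sample titles place in these groups: 2 of UFSP2-KO and 2 of WT, 4 of the 18 libraries of the series. UFSP2-KO is a clonal HEK293 line, a human embryonic kidney line, in which Cas9 was aimed at UFSP2, the protease that takes the small modifier UFM1 off other proteins. WT is the HEK293 line with no treatment listed. A second clonal line, UFM1-KO, in which Cas9 was aimed at UFM1 itself, also had 2 mRNA libraries, and its values stand beside the others where they help. All 3 lines were grown in the same medium, and the series also holds 12 ribosome footprint libraries of their membrane and cytosolic fractions. UFSP2-KO is 1 clone, so loss of the protease and any other difference between this clone and the parental cells cannot be told apart.

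UFM1 is a ubiquitin-like protein. It is attached to lysines of other proteins by a ligase built around UFL1 at the endoplasmic reticulum. Its best known target is RPL26, a large-subunit ribosomal protein that lies near the exit of the nascent chain on ribosomes docked at that membrane. UFSP2 cleaves the bond again, and cells without UFSP2 are known to accumulate modified RPL26, whereas cells without UFM1 lack the modification.

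The tables listed versioned Ensembl transcripts, and no table used here pairs these with gene names, so transcripts are given by ID and described by their measured properties. The transcripts of UFSP2, of the UFM1 pathway and of cell type markers were not looked up, and neither the knockout nor the identity of the line was checked in these counts. Transcripts with the same counts in all 6 mRNA libraries were treated as 1 feature. After this merging the UFSP2-KO libraries a and b held 50234775 and 29230448 counts, and the WT libraries 40570822 and 46111667. Reads shared by isoforms were counted in more than 1 feature, so a number of features is not a number of genes. Levels are in CPM, each library's counts scaled to a common total and adjusted with TMM factors. The labels do not say whether libraries a and b came from separate cultures, so p-values measure only the spread between these libraries.

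The mRNA of UFSP2-KO cells differed from that of WT cells, with more called falls than rises when all libraries were used. Of 33671 features tested, 1421 fell in UFSP2-KO and 718 rose, by edgeR's quasi-likelihood test at a Benjamini-Hochberg adjusted p under 0.05. These are 4.22% and 2.13% of all features tested, and 6.35% for both directions. The called falls were also larger, but they lay at lower levels, where a call can need a larger change. How far this sets the sizes was not tested. Of the features that fell, 83.1% fell more than 2-fold and 32.7% more than 4-fold, and the median log2 change was -1.45. Of those that rose, 53.9% rose more than 2-fold and 15.5% more than 4-fold, with a median log2 change of 1.05. Features at 0 counts in both libraries of a line, 58 of those that fell and 18 of those that rose, entered these shares at the bound that 3 counts over the group allow. On that bound 95 features fell and 35 rose more than 16-fold.

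The features that rose had a median level of 31.7 CPM in UFSP2-KO, 14.6 CPM in UFM1-KO and 14.0 CPM in WT. Those that fell had a median of 2.81 CPM in UFSP2-KO, 7.65 CPM in UFM1-KO and 8.09 CPM in WT. The UFM1-KO medians thus lay close to the WT medians for both sets, which does not hold for each feature. By edgeR at an adjusted p under 0.05, some were also called in UFM1-KO against WT, in either direction. These were 49 of the 718 and 105 of the 1421, where 618 of all 33671 were called. The comparisons of the knockouts with WT share the WT libraries, which can itself raise this overlap, so no correlation between them was computed.

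**Figure D1:**
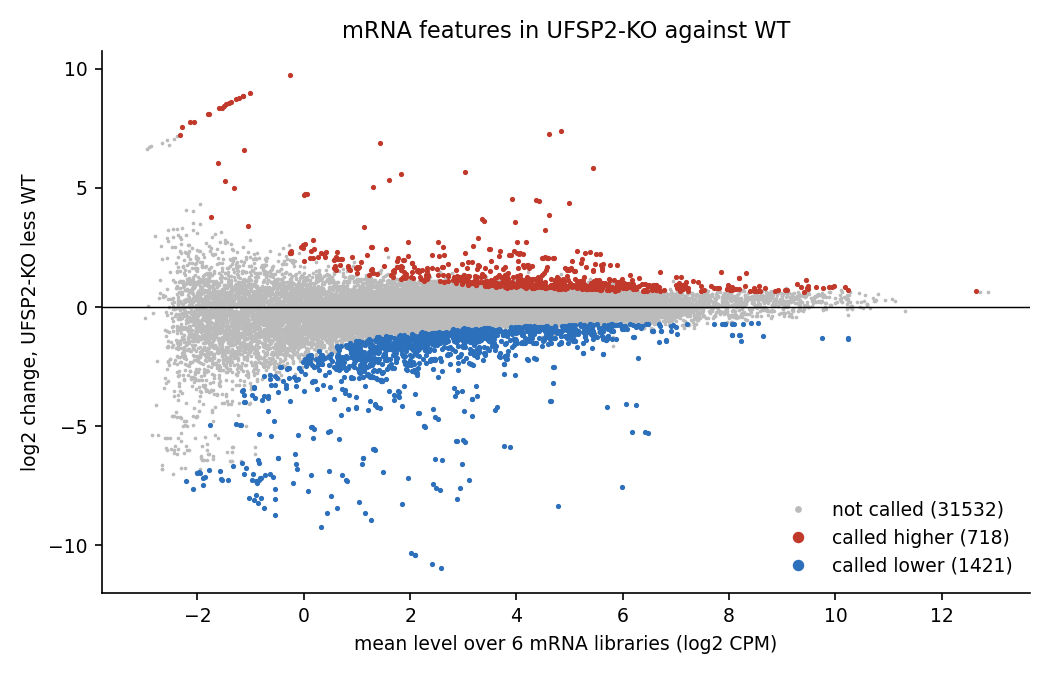
Log2 change of each mRNA feature, UFSP2-KO less WT (vertical axis), against its mean level over the 6 mRNA libraries in log2 CPM (horizontal axis); each point is 1 feature, and coloured points were called by edgeR. The 1421 called falls outnumber the 718 called rises, and they lie at lower levels.

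Every called feature had both UFSP2-KO libraries above, or both below, the 2 WT libraries, but the number of calls depended on which libraries were used. When WT library b was left out, 380 features were called by edgeR, 113 of them higher. Without WT library a it called 1187, with 226 higher, and without UFSP2-KO library b 1313, with 463 higher. Without UFSP2-KO library a it called 3058, of which 1567 were higher. The direction of a called feature never changed in these 4 fits, but with no overlap between the libraries it could hardly have done so. A set of 347 features, 245 lower and 102 higher, was called in the full fit and in each of the 4, and the smallest changes in it were a log2 of -1.24 and 1.27. The excess of falls depended on scaling too: 33.6% of the calls were higher with TMM and 16.9% with library size only, which put the median of all features at -0.14. DESeq2 called 1285 features higher and 1845 lower.

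The spread between replicates sets the scale for these differences. The SD of the log2 difference over features was 0.61 between the UFSP2-KO libraries and 0.57 between the WT libraries, and 0.77 to 0.95 between a UFSP2-KO and a WT library. Over 2-fold apart were 2952 features between the UFSP2-KO libraries and 2432 between the WT libraries. Between the lines the number was lowest for UFSP2-KO a and WT a, at 3966, and highest for UFSP2-KO b and WT b, at 7057.

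A small group of transcripts was close to silent in one line and present in the other. Of 22548 features with at least 5 CPM in WT, 19 had under 0.5 CPM in UFSP2-KO, on the mean of each group. Their median level was 0.159 CPM in UFSP2-KO, 14.4 CPM in UFM1-KO and 8.42 CPM in WT. In UFM1-KO they ranged from 5.29 to 112 CPM, so these transcripts were present in UFM1-KO and WT and nearly missing in UFSP2-KO. In the other direction, 6 of 22059 features with at least 5 CPM in UFSP2-KO had under 0.5 CPM in WT. Their levels were 7.13 to 72.4 CPM in UFSP2-KO, up to 0.317 CPM in UFM1-KO and 0.0652 to 0.488 CPM in WT. Since these features were chosen by the same mRNA values, no test of them is given. Between replicates of a line the same levels picked 1 feature, present in UFSP2-KO library b and silent in library a. Features can share reads, so these are not counts of genes. The number depends on the levels chosen: with at least 2 CPM against under 0.2 CPM it was 30 silent in UFSP2-KO and 5 silent in WT, and with at least 10 CPM against under 0.5 CPM it was 2 and 3.

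Footprints gave a second view of these features, from other libraries of the same lines. Of the 19 features silent in UFSP2-KO, 12 could be matched to a tested footprint feature. Here 1 footprint feature may be matched to more than 1 mRNA feature and then counts each time. Membrane footprints fell for 11 of the 12, where 5.89% of 11065 footprint features fell (11.1% in either direction), and cytosol footprints for 6, where 2.5% fell (3.99% in either direction), by edgeR at an adjusted p under 0.05. Of the 6 silent in WT, 2 were matched. Membrane footprints rose for both, against 5.24% of all footprint features, and cytosol footprints for 1, against 1.49%. A feature near silent in 1 line can pass the footprint filter through a line where it is high. The filter thus favours these directions, and the shares describe the features without supporting their change.

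Transcript ENST00000456430.6, with a listed length of 1217, read here as codons, showed the largest fitted fall of those considered for naming. It had 0 counts in both UFSP2-KO libraries, 11 and 12.7 CPM in the UFM1-KO libraries, and 5.01 and 6.45 CPM in the WT libraries. With 0 against 522 counts over the group, the level in UFSP2-KO was at least 145-fold lower than in WT, taking 3 counts over the group as the limit (edgeR adjusted p = 8.36e-07). The transcript was thus found in every library except those of UFSP2-KO. Its footprints were at 0 counts in all 4 UFSP2-KO footprint libraries. In the membrane fraction they were at 17.2 and 19.3 CPM in UFM1-KO and 19.2 and 13.7 CPM in WT. In the cytosol they were at 15.1 and 16.6 CPM in UFM1-KO and 16 and 12.7 CPM in WT, so neither RNA nor translation was detected at this depth in the UFSP2-KO clone.

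Transcript ENST00000616365.1, a short one of 117 codons, had the lowest p among the other falls. It had 0.535 and 0.246 CPM in the UFSP2-KO libraries, 102 and 121.5 CPM in the UFM1-KO libraries, and 72.9 and 83.3 CPM in the WT libraries. Its log2 change was -7.54 (SE 0.32, edgeR adjusted p = 9.4e-09), a 184-fold difference on pooled counts of 32 in UFSP2-KO and 7083 in WT. Footprints fell as well, by less on the log2 scale, and the difference between the assays was not tested. In the cytosol they were at 48.8 and 29.7 CPM in UFSP2-KO against 747.5 and 841 CPM in WT (log2 -4.42, SE 0.26, edgeR adjusted p = 6.57e-12). In the membrane fraction they were at 52.8 and 40.6 CPM in UFSP2-KO against 329 and 373 CPM in WT (log2 -2.92, SE 0.24, edgeR adjusted p = 2.06e-09). Both UFSP2-KO libraries lay below both WT libraries in all 3 readouts.

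Transcript ENST00000311208.12, of 413 codons, had the largest fitted rise of those considered for naming. It had 100 and 69.8 CPM in the UFSP2-KO libraries, 0.436 and 0.548 CPM in the UFM1-KO libraries, and 0.814 and 0.206 CPM in the WT libraries. The UFSP2-KO libraries stood far above the other 4, which overlapped. The log2 change was 7.41 (SE 0.44, edgeR adjusted p = 1.97e-07), and it lay between 6.70 and 8.67 under all 14 alternative settings. Membrane footprints were at 38.1 and 36.2 CPM in UFSP2-KO against 4.09 and 3.49 CPM in WT (log2 3.32, SE 0.35, edgeR adjusted p = 1.88e-07). In the cytosol they were at 31.05 and 29.1 CPM in UFSP2-KO against 0.999 and 2.30 CPM in WT (log2 3.86, SE 0.44, edgeR adjusted p = 2.45e-06). Footprints thus rose in both fractions, by less than the mRNA on the log2 scale.

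Transcript ENST00000266659.7, of 247 codons, had the lowest p among the other rises, and it separates all 3 lines. It had 40.9 and 45.9 CPM in the UFSP2-KO libraries, 1 count in each UFM1-KO library, and 2.32 and 1.38 CPM in the WT libraries. The log2 change was 4.55 in UFSP2-KO against WT (SE 0.30, edgeR adjusted p = 3.19e-07). Footprints in the membrane fraction were at 73.3 and 90.3 CPM in UFSP2-KO, 0.185 and 1.07 CPM in UFM1-KO, and 2.45 and 2.51 CPM in WT. That is a log2 change of 5.02 in UFSP2-KO against WT (SE 0.44, edgeR adjusted p = 1.49e-08). In the cytosol it had 5 and 0 footprints in UFSP2-KO and none in the WT libraries, too few to compare. In WT it had 6 and 18 footprints in the membrane fraction, and no ratio to the cytosol is given. The endoplasmic reticulum membrane is where most secreted and membrane proteins are made, but what this transcript encodes was not looked up.

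**Figure D2:**
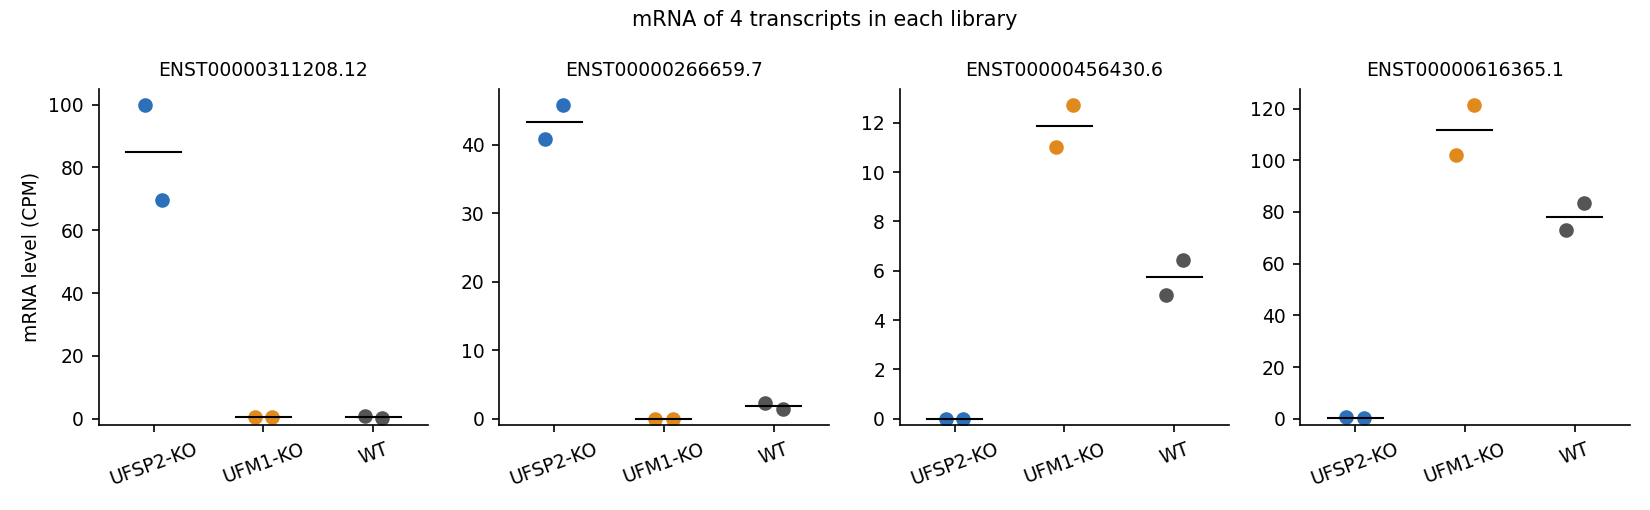
mRNA level in CPM (vertical axis, linear, a scale of its own for each transcript) of 4 transcripts in the 2 libraries of UFSP2-KO, UFM1-KO and WT; points are libraries and bars are group means. The UFSP2-KO libraries lie at 69.8 CPM or more for ENST00000311208.12 and at 40.9 CPM or more for ENST00000266659.7, and near 0 for ENST00000456430.6 and ENST00000616365.1.

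Footprint changes were also set beside the mRNA changes of all called features. Of the 33671 features, 10870 were matched to a tested footprint feature, 1 for each, and 809 of these were called in mRNA: 517 lower and 292 higher, or 4.76% and 2.69% (7.44% in all). Membrane footprints differed in the same direction as mRNA for 771 of the 809 (95.3%), against 68.3% of all 10870. Cytosol footprints did so for 674 (83.3%), against 66.0% of all. The share was high for small changes too. Membrane footprints had the same direction for 92.0% of 100 falls and 94.7% of 151 rises of up to 2-fold. Here too a feature can pass the footprint filter through a line where it is high. This favours the same direction, so the shares describe the features.

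Median footprint changes were mostly smaller than median mRNA changes, in features that were selected by their mRNA change. For 290 falls of 2-fold to 4-fold the median log2 change was -1.34 in mRNA, -0.94 in membrane footprints and -0.71 in cytosol footprints. For 92 falls of 4-fold to 16-fold it was -2.39, -1.997 and -1.03. For 117 rises of 2-fold to 4-fold it was 1.23, 1.04 and 0.85, and for 17 rises of 4-fold to 16-fold 2.37, 2.86 and 1.82. Features with 0 footprints in 1 line are at their bound in these medians, which makes their change smaller. In the cytosol these were 40 of the 290 and 25 of the 92 falls, and 12 of the 117 and 5 of the 17 rises. In the membrane fraction they were 4 of the 92 falls. The cytosol medians without the bound were -0.81 and -1.57 for the falls and 0.94 and 1.92 for the rises. By edgeR, 54 of the 92 larger falls also fell in membrane footprints and 20 in cytosol footprints, where 5.89% and 2.5% of all footprint features fell. Of the 17 larger rises, 16 rose in membrane footprints and 8 in cytosol footprints, against 5.24% and 1.49% of all. The footprint filter favours these directions here as well, so the shares over all footprint features are no even comparison. The difference between the fractions was not tested.

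**Figure D3:**
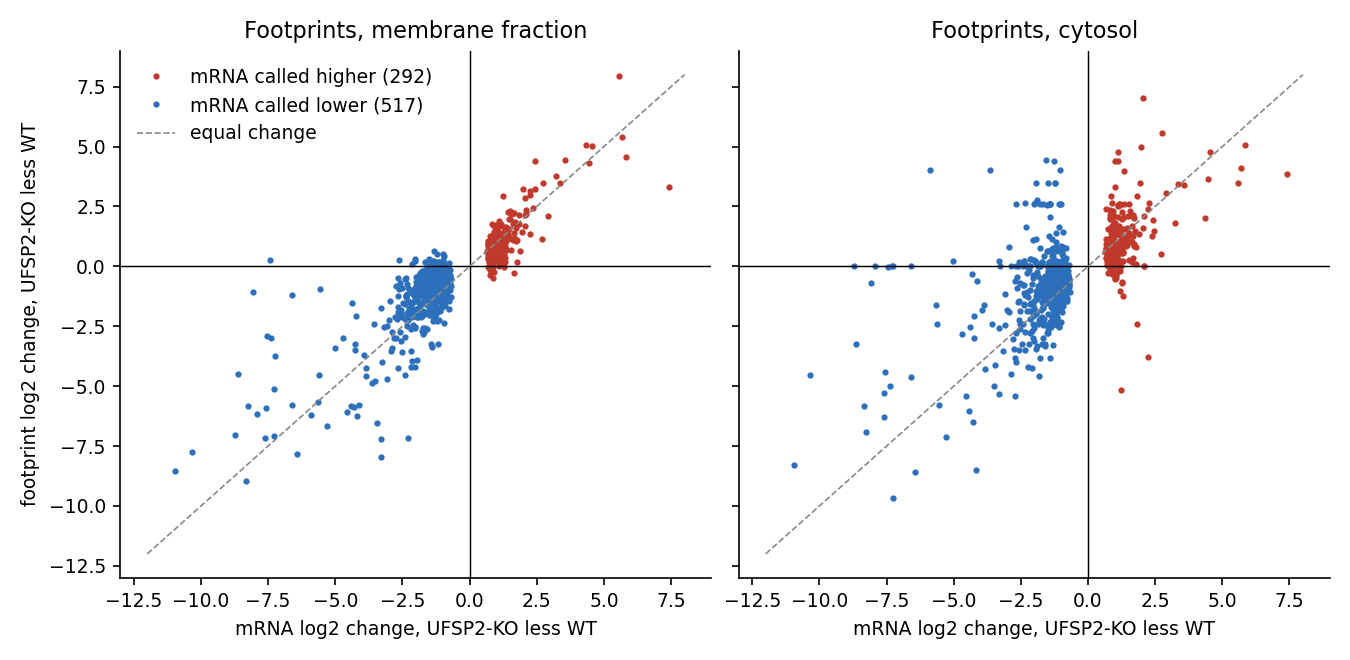
Log2 change of footprints (vertical axis) against log2 change of mRNA (horizontal axis), both UFSP2-KO less WT, for the 809 features called in mRNA and matched to footprints; the left panel shows the membrane fraction and the right panel the cytosol, and the dashed line marks equal change. Of the 809 points, 771 in the left panel and 674 in the right panel have the same sign on both axes, and horizontal runs in the right panel are features with few cytosol counts.

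Transcripts translated at the membrane were called more often than others. Enrichment here is the fitted log2 ratio of footprints in the WT membrane fraction to those in the WT cytosol. It was taken from libraries that the mRNA test did not use. No bound was set where a feature had 0 cytosol footprints, so a high value there is not a measured fold. Among 562 features with a log2 enrichment of 7 or more, 10.3% fell and 7.47% rose in UFSP2-KO mRNA, 17.8% in all. Among 5575 features with a log2 enrichment under 0, 3.09% fell and 2.39% rose, 5.47% in all. The shares called between these ends were 7.38%, 7.68%, 10.3% and 11.4% in order of enrichment. The membrane class, defined by an enrichment over 2-fold and an edgeR adjusted p under 0.05, held 22.8% of the 10870 features. It held 36.1% of the 809 called ones and 65 (45.8%) of the 142 matched features that were called in every fit without 1 library.

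The median log2 change was 0.032 in the class and 0.047 in the remaining features. Its features were called in both directions, 180 lower and 112 higher of 2477. Its median level in WT mRNA was 12.8 CPM and its median length 479 codons, against 18.2 CPM and 453 codons in the rest. Among features of 200 to 800 codons with a mean log2 CPM of 4 to 6, 8.66% of 381 rose and 2.62% fell where log2 enrichment was over 5. Where it was under 1, 2.84% of 2076 rose and 2.26% fell. The median log2 change was 0.24 and 0.10 in these sets, and in the same range of length and level it was 0.18 in the membrane class and 0.10 in the rest. In this narrower set the shares differed mainly for the rises. The share called was higher at an enrichment of 7 or more than under 0 in each of the 14 alternative settings, by 1.76 to 6.20 times. Without WT library b the shares were 4.45% and 0.717%, and without WT library a 10.3% and 2.71%.

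**Figure D4:**
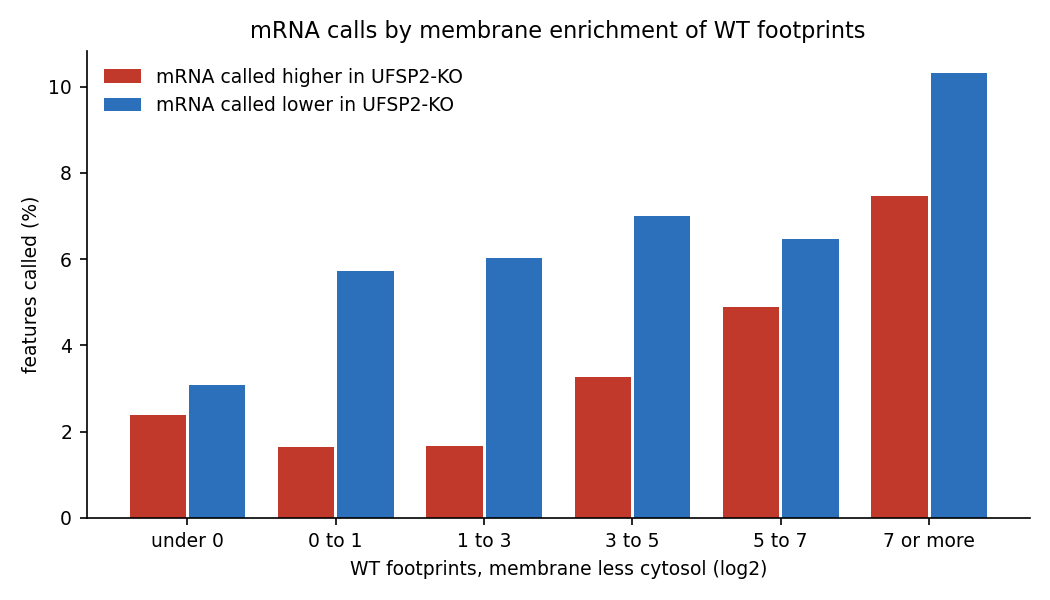
Share of mRNA features called higher or lower in UFSP2-KO by edgeR (vertical axis, percent), by membrane enrichment of WT footprints (horizontal axis, 6 classes). Enrichment is the fitted log2 ratio of the membrane fraction to the cytosol. Both shares are highest in the class of 7 or more, at 7.47% and 10.3%, against 2.39% and 3.09% in the class under 0.

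By the listed length, read as coding length in codons, long features were lower in UFSP2-KO than in WT. Short ones were higher, both by small amounts. The median log2 change was 0.14 for 2756 features under 100 codons and -0.27 for 1225 features of 1600 codons or more, with a decline in each class between that was steeper among the long ones. The share called lower went up along the same order, with 10.9% of the longest features and 1.02% of the shortest, while the share called higher stayed between 1.56% and 2.63%. Among features with a mean log2 CPM of 4 to 6 the medians were 0.24 at the short end and -0.16 at the long end.

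The length trend moved with a difference between the WT libraries. Relative to the mean of the WT libraries, the longest features had a median of -0.32 in UFSP2-KO library a and -0.19 in library b. In UFM1-KO it was 0.0004 in library a and -0.13 in library b. The difference of WT library a from WT library b was -0.38 for the same features and 0.15 for the shortest ones. Without WT library b the median of the longest features was -0.0061. Without WT library a it was -0.43. Against WT library a alone, the longest features were thus hardly lower in UFSP2-KO by their median. With the trend over length removed from each library, edgeR called 2432 features, 41.8% of them higher, and 1977 of the 2139 calls remained.

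**Figure D5:**
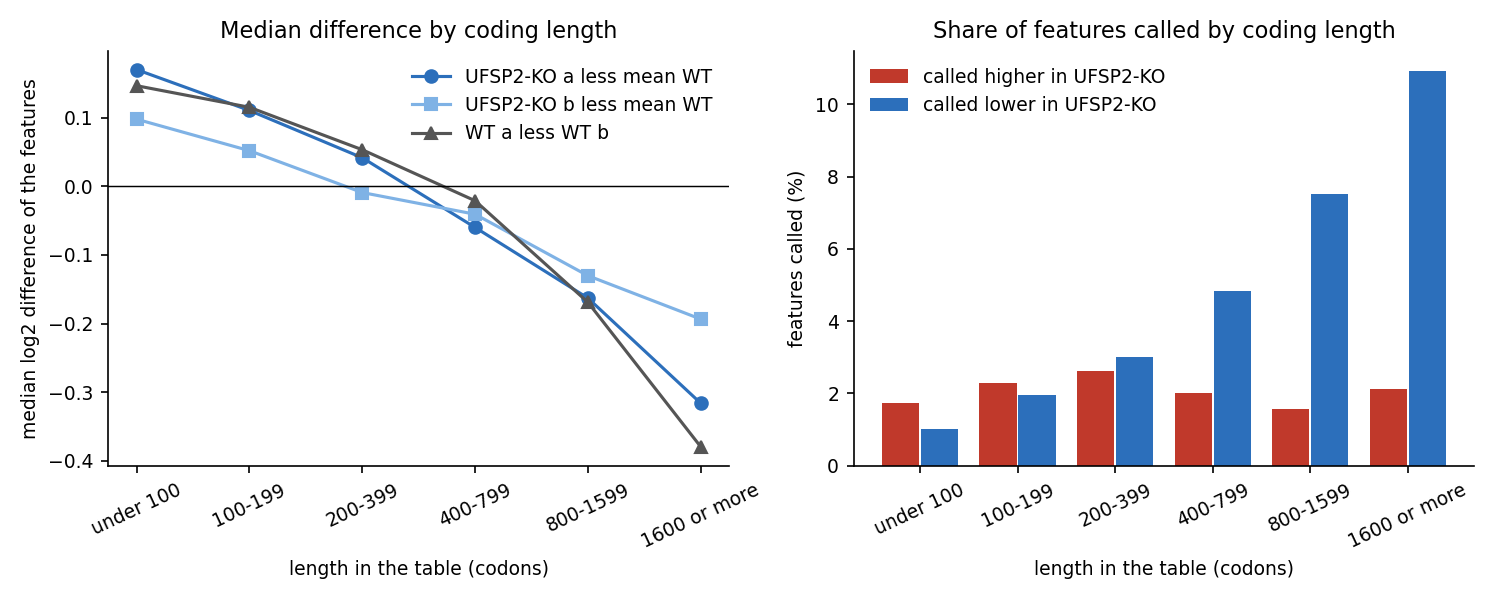
Left, median log2 difference of mRNA features (vertical axis) by length in codons (horizontal axis, 6 classes), for each UFSP2-KO library less the mean of WT and for WT library a less WT library b; right, share of features called higher or lower in UFSP2-KO (percent). The difference between the WT libraries, -0.38 for the longest features, is as large as that of UFSP2-KO library a (-0.32).

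Level also mattered for where calls fell. Of 3945 features with a mean log2 CPM under 0, 2.36% were called lower and 0.786% higher. Features with a mean log2 CPM of 0 to 2 were called lower in 7.25% and higher in 1.28% of cases. Those with a mean log2 CPM of 6 or more were called lower in 1.99% and higher in 4.52%. The median log2 change was -0.45, -0.24 and 0.13 in these 3 classes, in order of level. The WT libraries differed from each other in the same sense, by a median of -0.29, -0.15 and 0.091 for library a less library b.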

How the data were processed

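Messenger RNA was sequenced from whole-cell lysates from which ribosomal RNA had been depleted, using a strand-specific kit, per the labels' protocols. The authors deposited, for each library, raw counts per versioned Ensembl transcript with a length. It was read here as coding length in codons after a trim. That reading rests on the values, since no source used here states the unit. The submitters' processing notes name TopHat2 2.1.1 and the build GRCh38. What program counted the reads is not given in the sources used here. Of 98334 rows, 43611 had no length and 0 counts and were dropped. The 48110 rows with a length and a count became 36328 features once rows with identical counts in the 6 mRNA libraries were merged, each named by its first transcript. Of these, 28465 of the 33671 tested hold a single transcript.

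Counts were tested in R 4.3.3 with edgeR 4.0.16 (filterByExpr with a minimum count of 10, TMM, glmQLFit and glmQLFTest, 1 coefficient per group over the 6 mRNA libraries, and likewise over the 12 footprint libraries), two-sided, after a check on simulated counts. SE came from the F statistic. DESeq2 1.42.0 was an alternative. Transcripts of the assays were matched by ID without version and by length, 25629 in all. The tables pair no transcript with a gene, so the planned gene lists, markers, chromosomes and isoforms were not used, and 4 transcripts are named. These are the largest change and the lowest p in each direction among called features with at least 5 CPM in the higher line, no overlap, and a footprint match, a condition added after values were seen. The levels that define silent features were also chosen then. The members and lists were chosen with earlier results of these data known.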

Additional observations from a re-analysis of the deposited data

Results flagged for a closer look

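For each of the 4 named transcripts the change in UFSP2-KO differed from that in UFM1-KO, by edgeR's test of the difference between the knockouts over the 6 mRNA libraries. ENST00000311208.12 was higher in UFSP2-KO than in UFM1-KO by a log2 of 7.44 (edgeR adjusted p = 3.8e-08), and in UFM1-KO against WT its log2 change was -0.03 (edgeR adjusted p = 0.985). ENST00000266659.7 was higher by a fitted log2 of 10.83 (edgeR adjusted p = 2.71e-09), with 3213 counts in UFSP2-KO, 2 in UFM1-KO and 164 in WT. ENST00000456430.6, at 0 counts in UFSP2-KO and 1117 in UFM1-KO, had a fitted log2 difference of -12.01 (edgeR adjusted p = 6.12e-08), which is no bound. ENST00000616365.1 had a log2 difference of -8.06 (edgeR adjusted p = 1.18e-09), and in UFM1-KO against WT its log2 change was 0.52 (edgeR adjusted p = 0.268). For each of the 4, both UFSP2-KO libraries lay on the same side of both UFM1-KO libraries. The transcripts were chosen for their change in UFSP2-KO, so the differences describe them and support nothing further.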

How the results depend on the processing

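The mRNA changes of the 4 named transcripts kept their direction in all 14 alternatives. The transcripts were chosen for large changes or low p with no overlap between the libraries. The alternatives refit the same libraries, so a kept direction was close to fixed in advance. Of 2139 calls, 718 were higher and 1421 lower. With the model of only the 4 libraries of UFSP2-KO and WT there were 3246, 1255 of them higher. With only transcripts that the footprint tables hold there were 998, 332 higher and 666 lower, from 13900 features tested. DESeq2 called 1285 higher and 1845 lower, and library size only 415 higher and 2043 lower. Leaving out 1 library gave 380 to 3058 calls, 113 to 1567 higher and 267 to 1491 lower. The labels do not say that the letters a and b pair libraries. Their a-less-b differences, across features, correlated at -0.11 between UFSP2-KO and WT, -0.37 between UFSP2-KO and UFM1-KO and 0.054 between UFM1-KO and WT. With the letter as a block there were 1927 calls, of which 1765 were shared with the 2139. With crossed letters, a choice made after seeing the data, there were 4810 calls, 2054 higher and 2756 lower. The median log2 change of the longest features was 0.024 with the length trend removed, against -0.27, a change of sign that this correction itself makes. A fit with 1 feature per gene, gene lists and chromosomes were not run, since transcripts were not paired with genes here. With 2 libraries per line, depth limits statements on features at 0: 3 counts are the limit used.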
